A study of Mus musculus with 34 samples.

Results

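The genes described here encode subunits of the oxidative phosphorylation system, the 5 enzyme complexes of the inner mitochondrial membrane. They were chosen by name among the protein-coding genes, as those whose symbols begin with the subunit names Nduf (a, b, c, s or v), Sdha to Sdhd, Uqcr, Cyc1, Cox4 to Cox8 (a, b or c) or Atp5, together with every gene symbol that begins with mt-. This gave 99 of the 55487 gene IDs of each table. Of these, 86 are nuclear genes, with 38 in complex I, 4 in complex II, 9 in complex III, 17 in complex IV and 18 in complex V. The other 13 are encoded by the mitochondrial DNA, with 7 in complex I, 1 in complex III, 3 in complex IV and 2 in complex V. The 18 nuclear genes of complex V include a second ID named Atp5o, ENSMUSG00000116933, which had no read in any library. The nuclear genes also include Cox5b-ps of complex IV and Ndufb1-ps of complex I, which the tables class as protein-coding, and Ndufa4 and Ndufa4l2 are counted with complex I by their names. Of the nuclear genes 79 of 86 in either table passed the filter on low levels and were tested, as did all 13 mitochondrial genes. Cox6b2, Cox7a1, Cox7b2, Cox8b, Cox8c and the second Atp5o ID passed in neither table, Cox6a2 failed in the first only and Ndufa4l2 in the second only.

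Complexes I to IV pass electrons from NADH and succinate to oxygen, complexes I, III and IV pump protons on the way, and complex V, the ATP synthase, uses the proton gradient to make ATP. The mitochondrial DNA encodes core membrane subunits of complexes I, III, IV and V, whereas complex II and all other subunits come from the nucleus, so that building a complex needs transcripts of both genomes. In the liver this system supports urea synthesis, gluconeogenesis and fatty acid oxidation. Several complex IV subunits exist as pairs of isoforms, with 1 isoform found mainly in heart and skeletal muscle.

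Transcripts were measured by RNA sequencing of whole liver from male mice aged 3 months that were kept on standard chow. The first table held 5 livers labelled PiZ p50-KO given PBS, 5 PiZ livers given PBS, 6 wild-type livers taken 2 hours after TNFa and 6 wild-type livers given PBS. The second table, another batch by its label, held 6 wild-type livers taken 24 hours after tunicamycin and 6 given DMSO, and all agents were injected into the peritoneum. As background, PiZ mice carry the Z variant of human alpha-1 antitrypsin, which polymerizes in the endoplasmic reticulum of hepatocytes. The p50 subunit of NFκB is made from Nfkb1, TNFa activates NFκB, and tunicamycin blocks N-glycosylation and stresses the endoplasmic reticulum. The PiZ p50-KO mice carry the PiZ transgene and the homozygous p50 deletion, and no group with the deletion alone was analysed here. The strain of the wild-type mice, the promoter of the transgene and the deleted part of Nfkb1 are not given in the sources used here. Each library is a separate sample by its label, but nothing says whether tissue was pooled, so the p-values measure the spread between these samples. No value was compared between the tables.

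Depth was 35.5 to 54.0 M reads in the first table and 34.3 to 47.8 M in the second. The library WT PBS 2 stood apart, with 10.2 M reads and 72.2% of them on protein-coding genes, compared with 97.3% to 97.8% elsewhere in its table. It was left out of the fits and is described on its own. The level of Nfkb1, the deleted gene, was 4.51, 4.86, 3.31, 3.74 and 3.37 log2 CPM in the libraries labelled PiZ p50KO, against 5.58, 5.45, 5.00, 4.62 and 5.12 in PiZ. The fall was -1.20 ± 0.34 (log2 fold change and SE, limma adjusted p = 0.0145). The library labelled PiZ p50KO 2 lay within the range of PiZ, and that labelled PiZ p50KO 1 just below it. Both lay above every WT PBS library other than WT PBS 2, at 3.92 to 4.34. Whether the reads of these PiZ p50KO libraries lie outside the deleted part cannot be told. TNFa 4 had a lower Nfkb1 level, 4.77, than the other TNFa libraries, at 6.57 to 6.95. The hepatocyte marker Alb lay between 14.09 and 16.49 log2 CPM in the 33 libraries other than WT PBS 2.

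Reads on the 13 mitochondrial genes spanned a wide range within groups. They made up 8.37%, 7.22%, 18.7%, 8.26% and 7.18% of the reads in PiZ p50KO, and 6.57%, 6.35%, 9.4%, 19.2% and 4.79% in PiZ. They made up 7.29% to 14.6% (median 8.62%) after TNFa, and 11.2%, 8.73%, 19.6%, 9.94% and 12.5% in WT PBS. In the second table they made up 3.45% to 8.07% (median 3.87%) after tunicamycin and 4.16% to 23% (median 4.82%) after DMSO. One library in each of 5 groups was highest by a wide margin, namely PiZ p50KO 3, PiZ 4, WT PBS 4, tunicamycin 1 and DMSO 2. The nuclear genes moved unevenly in the same libraries. In DMSO 2, 60 of the 79 tested nuclear genes lay below and 14 above every other DMSO library, and in PiZ 4 these counts were 43 and 19. Atp5g2, a gene for the c subunit of complex V, was at 4.48 log2 CPM in PiZ p50KO 3, 4.52 in PiZ 4 and 3.46 in DMSO 2, the lowest of its group each time. Ndufb2, an accessory subunit of complex I, was the highest of its group in the same libraries, at 4.51, 4.33 and 3.28. Results that rest on these libraries are given with and without them, an alternative chosen after the data were seen.

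**Figure D1:**
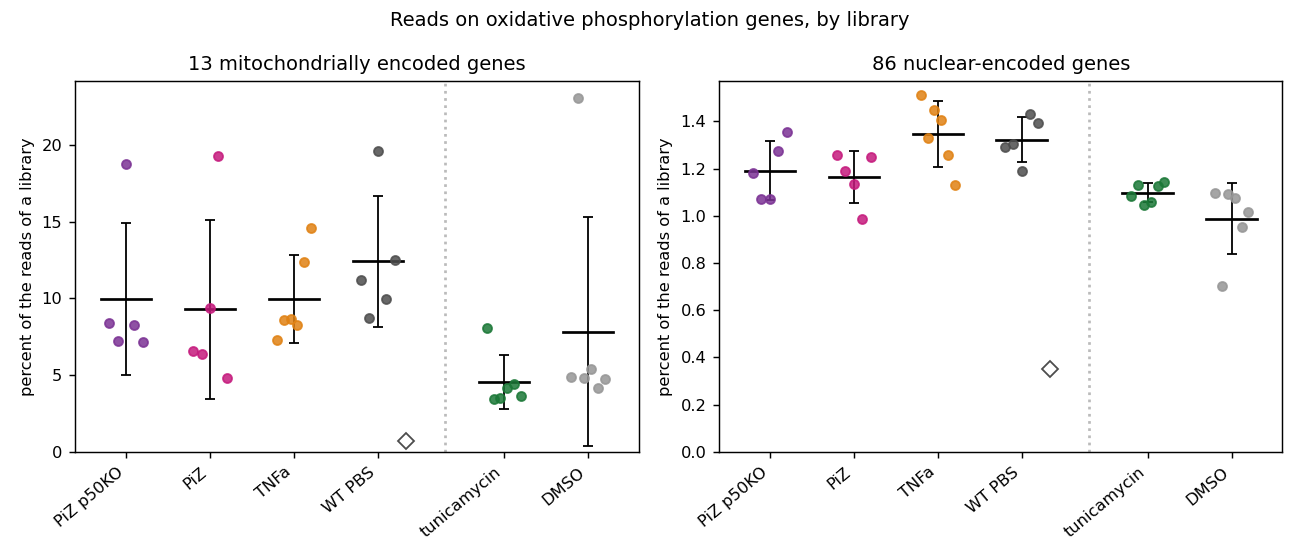
Percent of the reads of each library on the 13 mitochondrially encoded genes (left panel) and on the 86 nuclear genes (right panel). Points are libraries, bars are the group mean and SD, the open diamond is WT PBS 2, which is not in its group's mean, and the dotted line separates the tables. Mitochondrial shares reach 23% in 1 DMSO library, while the nuclear shares lie between 0.701% and 1.51% outside WT PBS 2.

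Promoter windows are shown for 4 nuclear genes on which the results below turn. These are Cox7a2l, called in 3 comparisons, Atp5g1, which rose after tunicamycin, its sister gene Atp5g2, which was not called, and Cox6a1, the liver isoform of the subunit whose muscle isoform gene is Cox6a2. RefSeq windows on GRCm38.p6, running from 250 bases before to 50 bases after the start site, were found for 69 of the 86 nuclear genes and were searched on both strands. The motif GCGCATGCG, bound by the respiratory gene regulator NRF1, was in the windows of 8 of these genes (11.6%), against 1.95% of all 27025 genes with a window. The ETS motif CCGGAAG, which GABPA binds, was in 17 (24.6%), against 9.93%. The C/EBP-ATF motif TGATGNAA was in 0, against 4.51%, and the YY1 motif AAGATGGCG in 7 (10.1%), against 1.64%. The NRF1 and YY1 motifs were shortened after their matches were seen, so their shares are not a test of enrichment. These motifs did not overlap one another in any window, and a match is a description of the letters, not a site. Capitals mark these motifs on either strand, and each window reads 5′ to 3′ on the gene's strand. Cox6a1 holds GCGCATGCG and the reverse complement of CCGGAAG, Atp5g2 holds GCGCATGCG, and the Cox7a2l and Atp5g1 windows hold none of the 4 motifs.
Cox7a2l (chr17:83514284-83514583, minus strand): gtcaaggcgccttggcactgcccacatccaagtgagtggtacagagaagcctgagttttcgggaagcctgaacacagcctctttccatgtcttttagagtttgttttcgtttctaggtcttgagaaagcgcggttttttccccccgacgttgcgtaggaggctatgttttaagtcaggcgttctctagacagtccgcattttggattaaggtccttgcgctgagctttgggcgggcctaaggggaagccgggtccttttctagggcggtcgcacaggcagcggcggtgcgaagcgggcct
Atp5g1 (chr11:96075582-96075881, minus strand): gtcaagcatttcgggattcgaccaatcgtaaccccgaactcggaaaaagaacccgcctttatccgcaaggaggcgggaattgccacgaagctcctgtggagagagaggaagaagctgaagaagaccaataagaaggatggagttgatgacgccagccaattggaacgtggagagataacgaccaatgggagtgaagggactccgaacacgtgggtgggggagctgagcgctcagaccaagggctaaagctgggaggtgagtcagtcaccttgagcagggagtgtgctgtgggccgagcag
Atp5g2 (chr15:102670998-102671297, minus strand): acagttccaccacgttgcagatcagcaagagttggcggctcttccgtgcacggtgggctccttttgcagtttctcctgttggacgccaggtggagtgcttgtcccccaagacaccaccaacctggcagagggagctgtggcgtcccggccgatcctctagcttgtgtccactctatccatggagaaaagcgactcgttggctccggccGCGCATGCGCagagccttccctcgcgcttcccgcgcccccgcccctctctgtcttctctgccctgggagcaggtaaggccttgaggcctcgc
Cox6a1 (chr5:115348909-115349208, minus strand): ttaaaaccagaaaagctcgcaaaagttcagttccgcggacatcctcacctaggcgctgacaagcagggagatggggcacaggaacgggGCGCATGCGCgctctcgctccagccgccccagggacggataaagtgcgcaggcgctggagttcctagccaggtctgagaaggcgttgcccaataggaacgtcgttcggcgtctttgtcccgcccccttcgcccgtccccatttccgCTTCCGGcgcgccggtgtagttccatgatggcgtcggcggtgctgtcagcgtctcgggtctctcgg

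PiZ livers were compared with WT PBS livers to ask what the polymerizing variant does. Of the 79 nuclear genes tested, 11 fell and 1 rose at a limma adjusted p under 0.05. The falls were 6 in complex I, 1 in complex III, 1 in complex IV and 3 in complex V, and none of the 4 complex II genes passed. All were small, between -0.51 and -0.25 on the log2 scale. Here and below, a value followed by ± is a log2 fold change, first group over second, with its SE. Among all 13285 genes tested, 6.19% fell and 45.6% rose, against 13.9% and 1.27% of the nuclear genes described here. The median log2 fold change was -0.18 for these genes and 0.40 over all genes, and 78 of the 79 lay below the median of all genes. Since the typical gene moved by that much, the split depends on the scaling. With libraries shifted to the same median, 70 of the 79 fell and 0 rose, while 22.5% of all genes fell and 17.4% rose. With WT PBS 2 in the fit, 0 fell and 1 rose, beside 2.22% and 15.1% of all genes.

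In complex I, Ndufc2, an accessory subunit of the membrane arm, had 5.24, 5.02, 4.89, 5.15 and 5.31 log2 CPM in PiZ, against 5.60, 5.66, 5.54, 5.67 and 5.66 in WT PBS (log2 fold change -0.51 ± 0.11 (SE), limma adjusted p = 0.000953). Every PiZ library lay below every WT PBS library. Ndufb10, another accessory subunit, had 6.97, 6.94, 7.02, 6.95 and 7.01 in PiZ, against 7.35, 7.18, 7.30, 7.41 and 7.50 in WT PBS (log2 fold change -0.37 ± 0.08 (SE), limma adjusted p = 0.000821), also without overlap. Ndufb9 fell by 0.37 with overlapping groups, and the core subunit Ndufv2 fell by 0.28 on the log2 scale. The accessory subunit Ndufv3 fell by 0.29. In complex II the greatest difference was that of Sdhb, the iron-sulphur subunit, at -0.28 ± 0.12 (limma adjusted p = 0.0644). In complex III only Uqcrh, the hinge protein, passed, at -0.36 ± 0.15 (limma adjusted p = 0.0479). Its call was lost in 8 of the 10 fits that left out 1 library, with adjusted p up to 0.119. It held only without PiZ 4 or WT PBS 3.

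In complex IV, Cox7c, a small structural subunit, had 7.17, 7.06, 7.02, 6.88 and 7.01 log2 CPM in PiZ, against 7.50, 7.23, 7.27, 7.50 and 7.52 in WT PBS (log2 fold change -0.37 ± 0.11 (SE), limma adjusted p = 0.00832), without overlap. Cox7a2l was the only nuclear gene called higher. It encodes a protein known to join complexes III and IV into supercomplexes. It had 6.91, 6.94, 7.01, 6.45 and 6.83 in PiZ, against 6.33, 6.32, 6.38, 6.18 and 6.26 in WT PBS (log2 fold change 0.53 ± 0.14 (SE), limma adjusted p = 0.00305), and the groups did not overlap. With the median shift its difference was 0.04 ± 0.14 (adjusted p = 0.827), so its rise was close to that of the median gene. In complex V, the alpha subunit gene Atp5a1 had 10.09, 10.06, 10.10, 9.83 and 10.20 in PiZ, against 10.40, 10.31, 10.26, 10.51 and 10.48 in WT PBS (log2 fold change -0.34 ± 0.10 (SE), limma adjusted p = 0.0077), again without overlap. Of the 3 genes for the c subunit, Atp5g3 fell (-0.46 ± 0.13), while Atp5g1 and Atp5g2 differed by -0.07 ± 0.19 and -0.17 ± 0.31 and did not pass. The gamma subunit gene Atp5c1 fell by 0.25 (limma adjusted p = 0.0314), a call lost without PiZ 2, PiZ 3, PiZ 5, WT PBS 4, WT PBS 5 or WT PBS 6 (adjusted p up to 0.0731). Of the hepatocyte markers, 4 of 6 fell in the same comparison, while Alb (-0.13 ± 0.18) and Tat (-0.28 ± 0.27) were not called. The summed level of the 6 markers was 61908 to 90887 CPM in PiZ and 87312 to 112751 CPM in WT PBS. All 6 macrophage markers rose, with a sum of 463 to 684 CPM in PiZ and 110 to 137 CPM in WT PBS. All 5 stellate cell markers also rose, with 381 to 492 CPM in PiZ and 90.4 to 101 CPM in WT PBS. 3 of 4 endothelial and 3 of 4 cholangiocyte markers rose too. Whether these markers reflect a change in cell types, and its part in the results, was not tested. In whole liver the number of hepatocytes and the level of each marker per hepatocyte cannot be told apart.

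**Figure D2:**
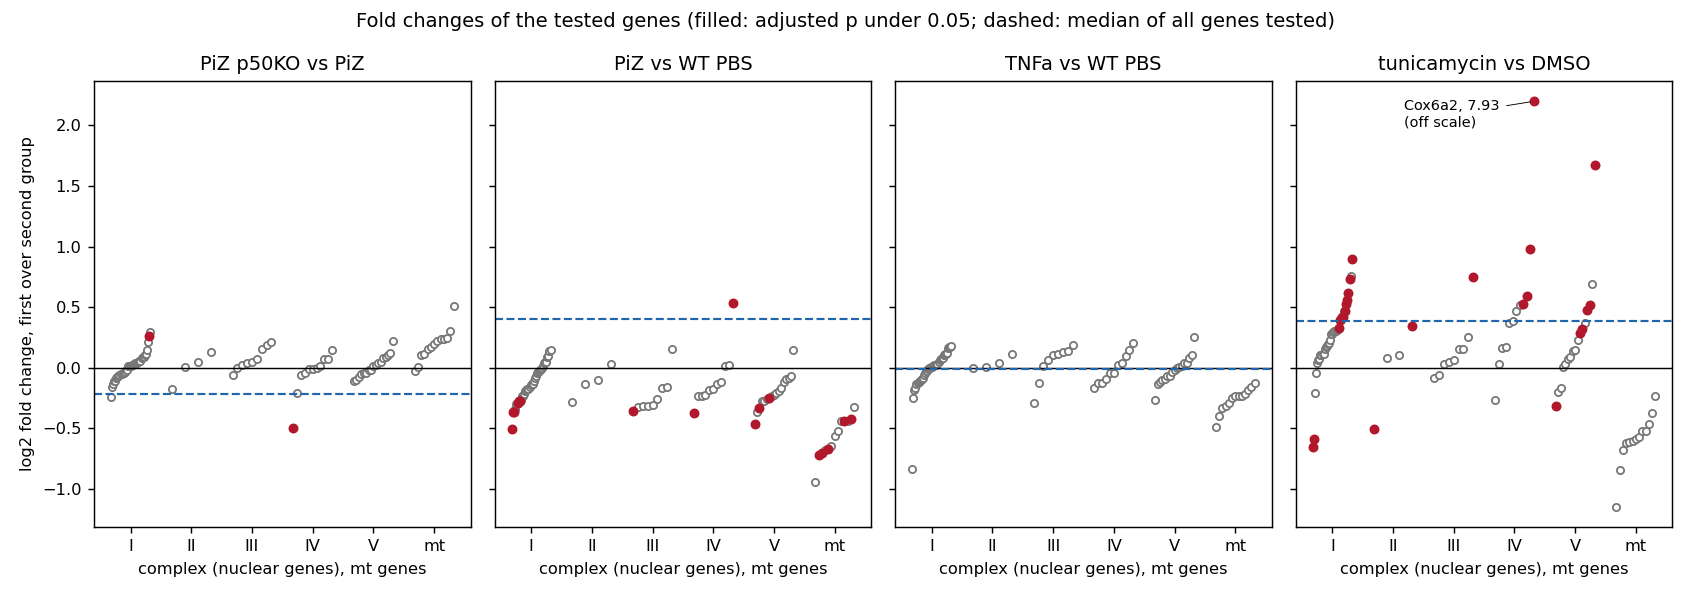
Log2 fold change (vertical axis, first over second group of each panel title) of every tested nuclear gene by complex and of the 13 mitochondrial genes (mt). Filled points passed an adjusted p of 0.05, and the dashed line is the median of all genes tested. In PiZ against WT PBS 78 of 79 nuclear genes lie below that line. Cox6a2 after tunicamycin, at 7.93, is drawn at the upper edge.

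The 13 mitochondrial genes were all lower in PiZ than in WT PBS by their means, although 8 of them were higher with WT PBS 2 in the fit and 2 with WT PBS 2 and the median shift. In the fit without that library 5 of them passed the test. These were mt-Nd3 of complex I (-0.68 ± 0.12), the complex IV core genes mt-Co2 (-0.43 ± 0.15) and mt-Co3 (-0.44 ± 0.11), and the complex V genes mt-Atp6 (-0.71 ± 0.23) and mt-Atp8 (-0.72 ± 0.18). The share, 38.5%, compares with 6.19% of all genes. The median of the 13 was -0.56. mt-Nd3, with 4.65, 4.37, 4.39, 4.78 and 4.09 log2 CPM in PiZ, against 5.06, 4.97, 5.29, 5.20 and 5.12 in WT PBS, did not overlap between the groups (limma adjusted p = 0.000124). mt-Nd2, a core subunit of complex I, had 12.66, 12.64, 13.35, 14.78 and 12.07 in PiZ, against 13.98, 13.34, 15.06, 13.71 and 14.14 in WT PBS (log2 fold change -0.95 ± 0.44 (SE), limma adjusted p = 0.077). PiZ 1, 2 and 5 lay below every WT PBS library, while PiZ 4 lay above all but WT PBS 4. mt-Co1, the catalytic subunit of complex IV, had 14.54, 14.42, 14.84, 15.51 and 14.15 in PiZ, against 14.93, 14.78, 15.44, 14.86 and 15.06 in WT PBS (log2 fold change -0.32 ± 0.22 (SE), limma adjusted p = 0.22), and PiZ 4 was the highest of both groups. The remaining mitochondrial genes, mt-Nd1, mt-Nd4, mt-Nd4l, mt-Nd5, mt-Nd6 and mt-Cytb, differed by -0.68 to -0.44 and did not pass. Without PiZ 4, 11 of the 13 fell, and without PiZ 4, PiZ p50KO 3 and WT PBS 4 together 11 fell, with mt-Nd2 at -1.11 ± 0.29 (adjusted p = 0.00373) and mt-Co1 at -0.42 ± 0.15 (adjusted p = 0.0286). In that fit 6.39% of all genes fell and 48% rose. With the median shift 10 fell, with WT PBS 2 in the fit 0 fell, and the call of mt-Co2 was lost without PiZ 5 or WT PBS 4 (adjusted p up to 0.0661).

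The levels of at least 5 of these genes are uncertain. On chromosome 1 the GENCODE M21 annotation of GRCm38 places 7 pseudogenes of mitochondrial genes at chr1:24611535-24616197 on the minus strand. Copies of mt-Co2, mt-Co3, mt-Atp6, mt-Nd3 and mt-Nd4l cover nearly the whole gene with 0 mismatches, and those of mt-Co1 and mt-Nd4 cover a part, with 1 mismatch in mt-Co1 and 0 in mt-Nd4. Over the 33 libraries other than WT PBS 2, the copy of mt-Co2 held 82.7% to 137% as many reads as mt-Co2 itself. The copy of mt-Atp6 held 141% to 266%, whereas the copy of mt-Co1 held 1.41% to 4.43%. Per kb of exon, the median in WT PBS was 884 reads per kb per M for mt-Co2 and 20217 for mt-Co1. The handling of reads that match several places is not given in the sources used here. mt-Atp8 overlaps mt-Atp6 at chrM:7927-7969, and mt-Nd4l overlaps mt-Nd4 at chrM:10167-10173, so reads there may be counted for either gene or for neither. Of the 5 genes called in PiZ, mt-Atp8 alone has no copy in that annotation. The stretch between the copies of mt-Co2 (chr1:24614885-24615565) and mt-Atp6 (chr1:24613974-24614651) holds no annotated copy and was not compared with mt-Atp8. In WT PBS mt-Atp8 was at 5.42 to 5.89 log2 CPM, against 14.78 to 15.44 for mt-Co1, so its level may be uncertain too. 4 of the 7 pseudogenes fell as well in PiZ against WT PBS.

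**Figure D3:**
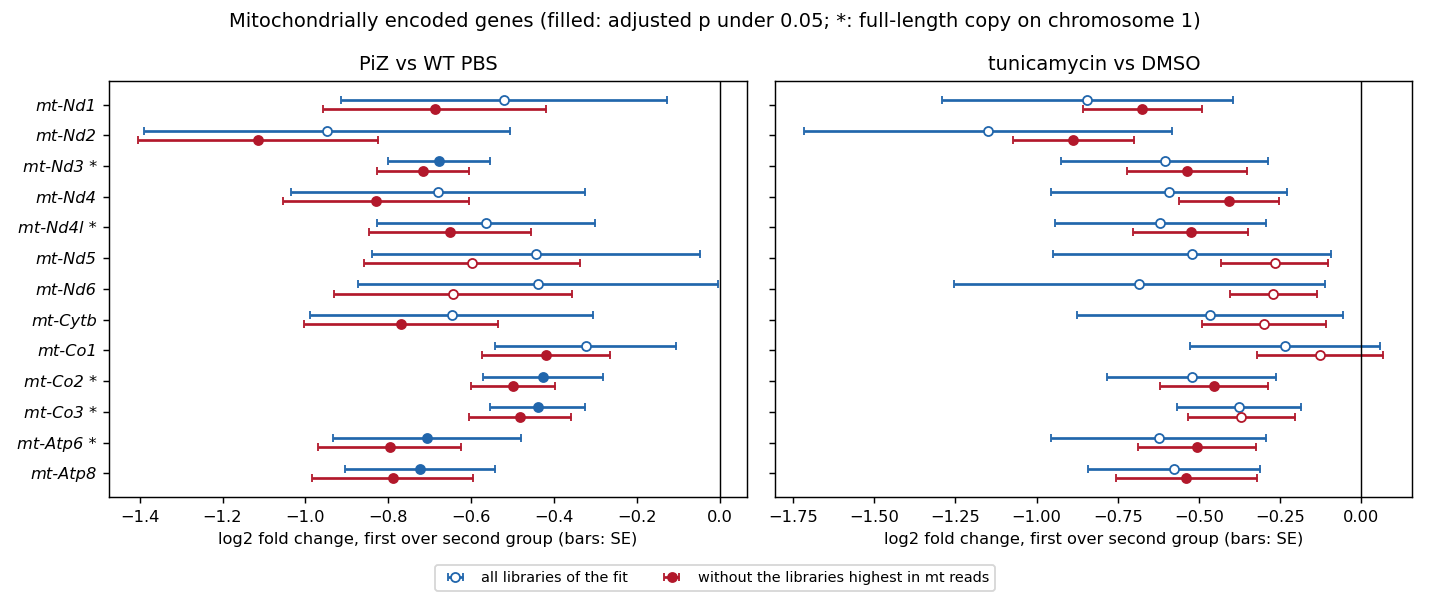
Log2 fold change and SE of the 13 mitochondrial genes in PiZ against WT PBS (left panel) and tunicamycin against DMSO (right panel), with all libraries of the fit and without those with the most mitochondrial reads. Filled points passed an adjusted p of 0.05, and an asterisk marks genes with a full-length copy on chromosome 1. In both panels all points lie below 0, and more are filled without those libraries (11 for PiZ and 8 for tunicamycin).

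PiZ p50KO livers were compared with PiZ livers to ask what the loss of p50 changes. Cox7a2l fell and Ndufv3 rose, and these were the only calls among the 92 genes tested. Among all genes 21.6% fell and 3.36% rose. Cox7a2l had 6.08, 5.89, 6.39, 6.67 and 6.61 log2 CPM in PiZ p50KO, against 6.91, 6.94, 7.01, 6.45 and 6.83 in PiZ (log2 fold change -0.50 ± 0.14 (SE), limma adjusted p = 0.012). The groups overlapped through PiZ 4. The lowest values were those of the libraries labelled PiZ p50KO 1 and 2, and without both libraries the difference was -0.27 ± 0.13 (adjusted p = 0.18). With the median shift it was -0.24 ± 0.14 (adjusted p = 0.244). Ndufv3 rose by 0.26 ± 0.10 (limma adjusted p = 0.0495) and lost its call in 7 of 10 fits that left out 1 library, holding it only without PiZ p50KO 2, PiZ 4 or PiZ 5 (adjusted p up to 0.139). Both comparisons with PiZ share the same PiZ libraries. In complexes II, III and V the greatest differences were those of Sdhc, a membrane anchor (-0.18 ± 0.20), Uqcrq, a small complex III subunit (0.21 ± 0.19), and Atp5g3 (0.22 ± 0.13), and they did not pass. The median was 0.02 for nuclear genes and 0.19 for mitochondrial genes, against -0.22 over all genes. 2 of the 79 nuclear and 0 of the 13 mitochondrial genes lay below that value. With the median shift 17 nuclear genes rose and 0 fell, and 1 mitochondrial gene rose, while 9.84% of all genes rose and 9.11% fell. mt-Nd3 rose in the fit without PiZ 4 as well (limma adjusted p = 0.0459). With WT PBS 2 in the fit, which then sets part of the estimated spread, 0 nuclear genes rose and 0 fell, beside 0.512% and 2.96% of all genes. Hepatocyte markers rose for 3 of 6 in this comparison. Of the other lists, 6 of 6 macrophage, 4 of 5 stellate cell, 2 of 4 cholangiocyte and 0 of 4 endothelial markers fell, and their part in the results on nuclear genes was not tested.

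At 2 hours after TNFa, none of the 79 nuclear and none of the 13 mitochondrial genes passed with limma, while 7.63% of all genes rose and 4.05% fell. The greatest difference among the nuclear genes was that of Ndufa4l2, a hypoxia-induced relative of Ndufa4. It had -1.43 to -0.30 (median -1.23) log2 CPM after TNFa, against -0.15, 0.19, -1.41, -0.26 and 0.29 in WT PBS (log2 fold change -0.83 ± 0.37 (SE), limma adjusted p = 0.184). The groups overlapped, and the reads behind it were few, with 118 over the TNFa libraries and 204 over those of WT PBS. The greatest differences in the other complexes were those of Sdhc (0.12 ± 0.19), Uqcrb of complex III (-0.29 ± 0.32), Cox6a1 (0.20 ± 0.21) and Atp5md of complex V (-0.27 ± 0.21). The median was 0.01 for nuclear and -0.24 for mitochondrial genes, against -0.02 over all genes. The mitochondrial genes differed by -0.49 to -0.13, with SEs of 0.11 to 0.42. No gene described here was called without TNFa 4 either. Markers of neutrophils rose for 3 of the 3 tested and of macrophages for 2 of 6. Among the other lists, endothelial Kdr and stellate cell Lrat fell. Endothelial Lyve1, cholangiocyte Krt19 and Sox9, erythroid Hbb-bs and pancreatic acinar Cpa1 rose, and no hepatocyte marker was called. The part of any of these in the results was not tested.

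At 24 hours after tunicamycin, 21 nuclear genes rose and 4 fell of the 79 tested. The rises were 10 in complex I, 1 in complex II, 1 in complex III, 4 in complex IV and 5 in complex V, and the falls were 2 in complex I and 1 each in complexes II and V. Among all 13388 genes tested, 45.3% rose and 13.5% fell, against 26.6% and 5.06% of the nuclear genes, so the share called was below the background in each direction. The median was 0.22, against 0.38 over all genes. With the median shift 3 rose and 18 fell, beside 24.1% and 29.2% of all genes. The 3 that rose with the shift too were Cox6a2, Atp5g1 and Cox7a2l. Cox6a2 is in these counts although it passed the filter only through the tunicamycin libraries. Without tunicamycin 5, or without tunicamycin c, 13 rose, and 9 fell without DMSO 2.

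In complex I the greatest rises with all libraries were those of the accessory subunits Ndufb11, Ndufa11 and Ndufb4. Ndufb11 had 7.0 to 7.57 (median 7.41) log2 CPM after tunicamycin, against 5.14 to 6.79 (median 6.71) after DMSO (log2 fold change 0.89 ± 0.25 (SE), limma adjusted p = 0.00816), without overlap. Its rise was 0.63 to 0.96 when 1 library was left out, and its call held each time. Ndufb4 had 5.19 to 5.52 (median 5.43) after tunicamycin, against 4.63 to 4.88 (median 4.80) after DMSO (log2 fold change 0.62 ± 0.10 (SE), limma adjusted p = 0.000262), without overlap either. Ndufa11 rose by 0.73 ± 0.27 (limma adjusted p = 0.0344) and lost its call without tunicamycin 5, 6, b or c (adjusted p up to 0.0675). Its rise was 0.44 to 0.81 when 1 library was left out. Ndufa9, an accessory subunit at the base of the matrix arm, fell to 5.12 to 6.37 (median 5.80) after tunicamycin, against 5.87 to 6.66 (median 6.60) after DMSO (log2 fold change -0.65 ± 0.21 (SE), limma adjusted p = 0.017), and the groups overlapped through DMSO 2.

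The complex II catalytic subunits moved in opposite directions at the deposited scale, though not with the median shift. Sdha, the flavoprotein, had 8.38 to 9.0 (median 8.66) log2 CPM after tunicamycin, against 8.94 to 9.33 (median 9.25) after DMSO (log2 fold change -0.51 ± 0.14 (SE), limma adjusted p = 0.00611). Sdhb, the iron-sulphur subunit, had 7.91 to 8.23 (median 8.07) after tunicamycin, against 7.27 to 7.93 (median 7.83) after DMSO (log2 fold change 0.34 ± 0.13 (SE), limma adjusted p = 0.0385). The rise of Sdhb was below the median of all genes, turned to -0.11 with the median shift, and lost its call without DMSO 5 or tunicamycin 1, 5, b or c (adjusted p up to 0.0867). In complex III only Uqcr10, a small subunit, passed (0.75 ± 0.27, limma adjusted p = 0.0289), and not without tunicamycin 5, 6 or c (adjusted p up to 0.0599). Its rise was 0.48 to 0.84 when 1 library was left out. In complex IV, Cox7a2l had 6.53 to 7.08 (median 6.79) after tunicamycin, against 5.78 to 5.86 (median 5.82) after DMSO (log2 fold change 0.98 ± 0.11 (SE), limma adjusted p = 1.64e-05). Its DMSO values spanned less than 0.1 and all tunicamycin values lay above them. Cox7a2, the liver isoform of subunit 7a, rose by 0.59 ± 0.14 and Cox5b by 0.53 ± 0.13.

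Complex V held a strong rise in 1 of the 3 genes for its c subunit. Atp5g1, Atp5g2 and Atp5g3 encode the same mature protein, the proton-carrying ring subunit, with different import sequences. Atp5g1 had 7.72 to 8.81 (median 8.49) log2 CPM after tunicamycin, against 4.96 to 7.13 (median 6.95) after DMSO (log2 fold change 1.68 ± 0.35 (SE), limma adjusted p = 0.0012). The groups did not overlap, and the low DMSO value is that of DMSO 2. Without DMSO 2 and tunicamycin 1 the rise was 1.46 ± 0.19 (adjusted p = 0.000105). Atp5g3 rose by 0.47 ± 0.14 (limma adjusted p = 0.0119) and Atp5g2 differed by 0.69 ± 0.33 (limma adjusted p = 0.0834). Atp5o, for the stalk protein OSCP, rose by 0.51 ± 0.13, and Atp5k, for the small membrane subunit e, fell by 0.32 (limma adjusted p = 0.0212).

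The 13 mitochondrial genes were all lower after tunicamycin by their means, although 3 were higher with quantile normalization and 4 with a replicate block. Their differences ran from -1.15 for mt-Nd2 to -0.23 for mt-Co1, with a median of -0.59. With all libraries none passed with limma, while 45.3% of all genes rose and 13.5% fell. mt-Nd2 had 10.89 to 13.04 (median 11.33) log2 CPM after tunicamycin, against 11.97 to 15.50 (median 12.16) after DMSO (log2 fold change -1.15 ± 0.57 (SE), limma adjusted p = 0.095). The highest value of each group is that of tunicamycin 1 and DMSO 2. Without these libraries 8 of the 13 fell, beside 18.3% of all genes (48.7% rose), with mt-Nd2 at -0.89 ± 0.19 (adjusted p = 0.00178), mt-Nd1 at -0.67 ± 0.18 (adjusted p = 0.00736) and mt-Nd4 at -0.41 ± 0.15 (adjusted p = 0.0358). In that fit mt-Nd5, mt-Nd6, mt-Cytb, mt-Co1 and mt-Co3 did not pass. Without tunicamycin 1 alone 6 fell, and with the median shift 7 fell. Of the hepatocyte markers 4 of 6 fell, with a summed level of 24071 to 65374 CPM after tunicamycin and 84768 to 110350 CPM after DMSO. Another, Tat, rose (1.32 ± 0.23), and Cps1 was not called. Of the macrophage markers 3 of 6 fell. Markers of pancreatic acinar cells rose for 3 of 4, with a sum of 10.6 to 640 CPM after tunicamycin and 9.84 to 26.4 CPM after DMSO. 3 of 3 erythroid markers fell. The part of any of these in the results was not tested.

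Cox6a2, the heart and skeletal muscle isoform of complex IV subunit 6a, showed the greatest fitted change of all the genes described. After tunicamycin it had 1.13 to 3.15 (median 3.00) log2 CPM, against -6.40 to -3.92 (median -5.52) after DMSO (limma adjusted p = 3.79e-07). It passed the filter only through the tunicamycin libraries, where it was high, so that p-value is not independent of the filter. In the fit without a filter the difference was 7.93 ± 0.56 (SE), limma adjusted p = 1.41e-07. In reads, the tunicamycin libraries held 200, 365, 388, 104, 340 and 372, and the DMSO libraries held 1, 0, 0, 2, 2 and 0. The ratio of the pooled reads per M was 303 (95% exact interval 130 to 935). That interval covers counting error only, and the fitted log2 fold change of 7.93 ± 0.54 depends on the prior count, since 3 DMSO libraries had no read. In the first table the gene was below the filter. Its reads were 0, 0, 10, 18 and 6 in PiZ p50KO, and 70, 68, 67, 22 and 18 in the PiZ livers. They were 2, 4, 2, 0, 2 and 0 in the livers given TNFa, and 0, 0, 2, 2 and 0 in WT PBS. Every PiZ library thus lay above every WT PBS library, and the PiZ p50KO libraries reached no more than the lowest PiZ library. The pooled ratio was 62.9 (95% exact interval 24.2 to 233) for PiZ over WT PBS and 0.131 (95% exact interval 0.0886 to 0.188) for PiZ p50KO over PiZ. In the fit without a filter the differences were 5.51 ± 0.99 (SE), limma adjusted p = 0.000181 for PiZ, and -3.77 ± 0.99 (SE), limma adjusted p = 0.0174 for PiZ p50KO against PiZ. The libraries with no read, labelled PiZ p50KO 1 and 2, are those with the highest Nfkb1 level of that group. Cox6a1, the liver isoform of the same subunit, differed by 0.02 ± 0.22 in PiZ and 0.46 ± 0.28 after tunicamycin (limma adjusted p = 0.173). In the WT PBS group Cox6a1 had the highest median per exon length of all nuclear genes described, 466 reads per kb per M.

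Other markers of muscle were low in these groups. The 6 muscle marker genes summed to 0.761 to 2.26 CPM after tunicamycin and 0.809 to 1.85 CPM after DMSO. They summed to 0.501 to 2.1 CPM in PiZ and 0.47 to 0.653 CPM in WT PBS, so the sums reached higher in PiZ. Whether muscle tissue contributed to the Cox6a2 reads was not tested. The muscle actin gene Acta1 had at most 7 reads in a tunicamycin library and 7 in a DMSO library, and the myosin gene Myh4 at most 0 and 3. Cox7a1, Cox8b and Cox6b2 were not called in the fits without a filter. Cox7a1, the muscle isoform of subunit 7a, had a pooled ratio of 0.763 (95% exact interval 0.549 to 1.06) for tunicamycin over DMSO and 1.18 (95% exact interval 0.93 to 1.51) for PiZ over WT PBS. Cox8b, the muscle isoform of subunit 8, had 12 reads over all tunicamycin libraries and 9 over all DMSO libraries. Cox6b2, the testis isoform of subunit 6b, had a pooled ratio of 3.19 (95% exact interval 2.06 to 5.07) for PiZ over WT PBS, where it did not pass in the fit without a filter (1.65 ± 0.82 (SE), limma adjusted p = 0.181). The liver isoforms Cox8a and Cox6b1 and Ndufa4, now known as a complex IV subunit, differed by 0.39 ± 0.31, 0.16 ± 0.14 and -0.05 ± 0.13 after tunicamycin and did not pass. Ndufa4l2 fell after tunicamycin in the fit without a filter (-0.84 ± 0.28 (SE), limma adjusted p = 0.0363).

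**Figure D4:**
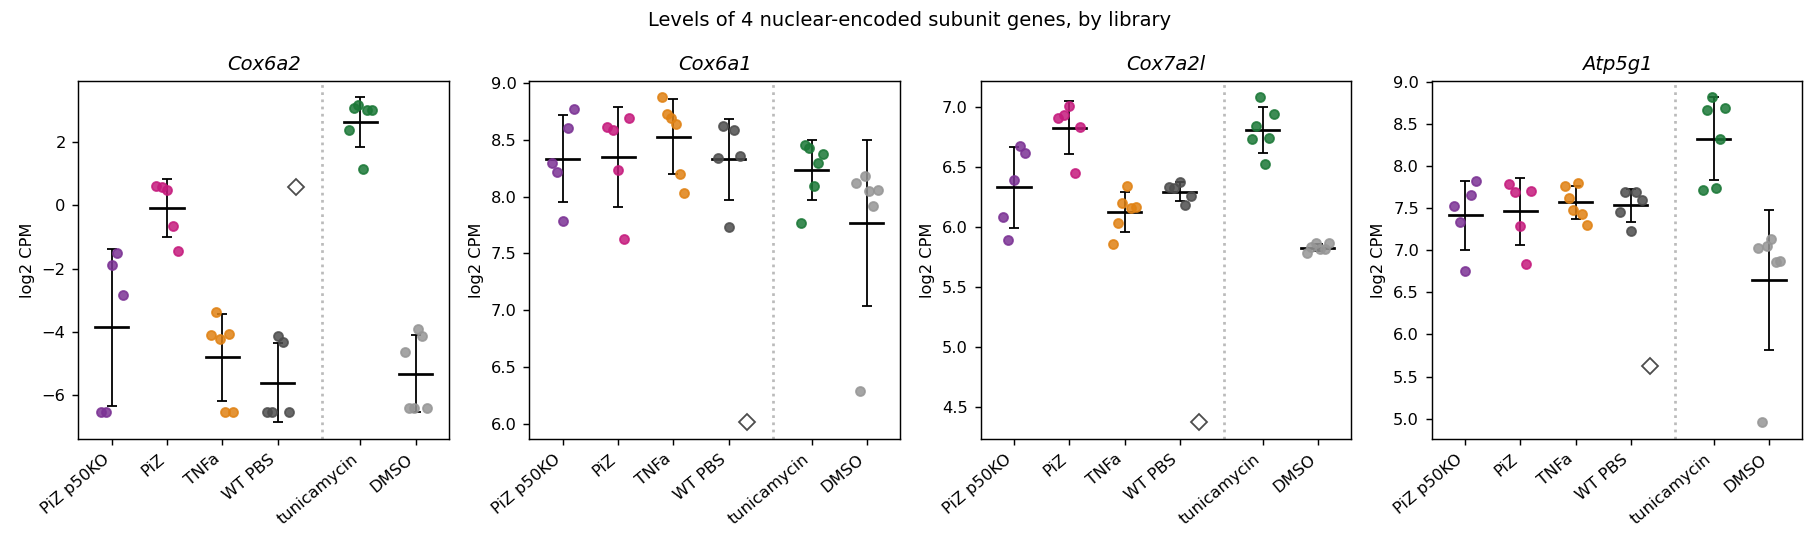
Level of Cox6a2, its liver sister Cox6a1, Cox7a2l and Atp5g1 in each library, in log2 CPM on axes that do not start at 0. Points are libraries, bars are the group mean and SD, and the open diamond is WT PBS 2. Cox6a2 lies at 1.13 or above after tunicamycin and at -3.92 or below after DMSO, and the lowest points stand for no read.

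The other genes of the pathway were described from lists chosen by function, and each count is set beside the share of all genes that rose and fell in its comparison. The 3 tested subunits that the name rule leaves out were Cox4i1 of complex IV, Ndufab1, the acyl carrier of complex I, and Cycs, cytochrome c. Cox4i1 fell in PiZ (-0.29 ± 0.12), and Cycs rose after tunicamycin (1.68 ± 0.22). Of the mitochondrial ribosome genes, which make the 13 mitochondrial proteins, 53 rose and 0 fell of 77 after tunicamycin, beside 45.3% and 13.5% of all genes, with a median of 0.67. In PiZ against WT PBS 7 rose and 5 fell of 77, beside 45.6% and 6.19% of all genes, with a median of -0.00062 against 0.40 over all genes. Among factors that transcribe and process mitochondrial RNA, 19 rose and 1 fell of 24 after tunicamycin, beside the same shares of all genes, with a median of 0.84. Tfb1m, which methylates mitochondrial ribosomal RNA, rose by 2.21 ± 0.25, Fastk, of a family of mitochondrial RNA-binding proteins, rose too (1.42 ± 0.35), and Hsd17b10, a subunit of mitochondrial RNase P, fell (-0.55 ± 0.14). Hsd17b10 fell in PiZ as well (-0.86 ± 0.16) and rose in PiZ p50KO against PiZ (0.59 ± 0.16), which share the PiZ libraries. In PiZ 6 rose and 1 fell of 24 in this list, beside 45.6% and 6.19% of all genes.

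Assembly factors put the complexes together without staying in them. After tunicamycin 25 rose and 0 fell of 44, with a median of 0.50 beside 0.38 over all genes, where 45.3% rose and 13.5% fell. In PiZ 11 rose and 4 fell of 43, beside 45.6% and 6.19% of all genes, with the complex IV factors Cox19 (1.10 ± 0.15) and Cox18 (1.09 ± 0.20) higher and Lyrm7, which guides the Rieske protein into complex III, lower (-1.62 ± 0.27). In PiZ p50KO against PiZ 3 rose and 4 fell of 43, beside 3.36% and 21.6% of all genes, with Cox18 at -0.86 ± 0.20, Cox19 at -0.69 ± 0.15 and Lyrm7 at 0.90 ± 0.27. Of the carriers and coenzyme Q genes 5 rose and 0 fell of 20 in PiZ, beside 45.6% and 6.19% of all genes, led by Ucp2, an uncoupling protein known to be abundant in liver macrophages (2.07 ± 0.23), and Slc25a4, an ADP/ATP carrier (1.40 ± 0.21). In PiZ p50KO 0 rose and 5 fell of 20, where 21.6% of all genes fell, with Ucp2 at -1.32 ± 0.23 and Slc25a4 at -1.18 ± 0.21. After tunicamycin 10 rose and 1 fell of 20, beside 45.3% and 13.5% of all genes, with Coq8b, needed for coenzyme Q synthesis, at 2.95 ± 0.36 and Ucp2 at -0.61 ± 0.16. Of the citric acid cycle genes 9 rose and 1 fell of 16 after tunicamycin, beside the same shares, with Mdh2, the malate dehydrogenase, at 1.78 ± 0.22 and Suclg2, a succinyl-CoA ligase subunit, at -1.08 ± 0.15. In PiZ 3 rose and 2 fell of 16, beside 45.6% and 6.19% of all genes. Citrate synthase, Cs, was at 0.48 ± 0.16, beside a median of 0.40 over all genes. After TNFa, 0 genes of these 5 lists rose, where 7.63% of all genes rose and 4.05% fell, and 3 fell, namely Mterf4 (-0.62 ± 0.13), Mrpl9 (-0.37 ± 0.11) and Uqcc1 (-0.32 ± 0.09).

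Regulators of these genes were called in each comparison. After TNFa 4 rose and 2 fell of 11, beside 7.63% and 4.05% of all genes. Gabpb1, which encodes the partner of GABPA, rose by 1.48 ± 0.21, the coactivator gene Pprc1 by 1.29 ± 0.26, Myc by 2.58 ± 0.34 and Hif1a by 0.61 ± 0.17. The coactivator gene Ppargc1b fell (-2.67 ± 0.58), as did Ppara, the fatty acid receptor gene (-1.18 ± 0.33). After tunicamycin 6 rose and 1 fell of 11, beside 45.3% and 13.5% of all genes, with rises of Myc (3.50 ± 0.47), Pprc1 (1.67 ± 0.30), Nrf1 (0.94 ± 0.27), Yy1 (0.56 ± 0.17), Gabpb1 (0.45 ± 0.15) and Gabpa (0.41 ± 0.12) and a fall of Ppara (-1.02 ± 0.30). In PiZ 3 rose and 0 fell of 11, beside 45.6% and 6.19% of all genes, namely Myc (2.53 ± 0.35), Gabpb1 (0.70 ± 0.22) and Gabpa (0.34 ± 0.12), and in PiZ p50KO against PiZ Myc fell (-1.20 ± 0.35). The median over all genes was 0.40 in PiZ and 0.38 after tunicamycin. Gabpa in PiZ thus rose by less than the median gene, and Gabpa and Gabpb1 after tunicamycin by little more. Counts with the median shift are not given for the regulators and the other lists. Ppargc1a, the best known coactivator of mitochondrial genes, was not called in any of the 4 comparisons.

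**Figure D5:**
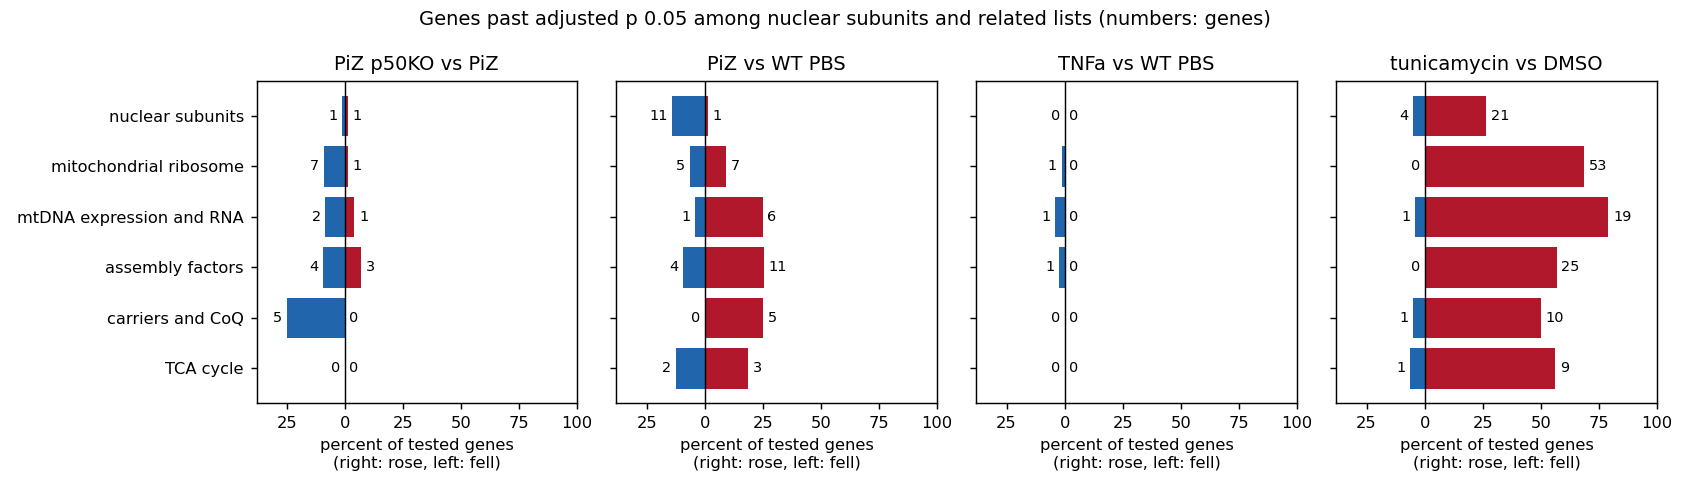
Percent of the tested genes of the nuclear subunits and of 5 related lists that rose (right) or fell (left) at a limma adjusted p under 0.05 in each comparison, with the number of genes beside each bar. After tunicamycin 19 of 24 genes for mitochondrial RNA and 53 of 77 ribosome genes rose, beside 21 of 79 nuclear subunits and 45.3% of all genes.

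WT PBS 2 differed from the other WT PBS livers in nearly every gene described. Its 13 mitochondrial genes held 0.706% of its reads, and all 13 lay below the other 5 WT PBS libraries. Of the 79 nuclear genes tested, 74 lay below and 2 above all of them. mt-Co1 was at 10.69 log2 CPM in WT PBS 2 and Cox7a2l at 4.37. The muscle and testis isoforms went the other way, with Cox6a2 at 0.57 and Cox6b2 at 31 reads. Ndufa4l2, which is neither, was higher there as well, at 2.90. Acta1 was at 6.04 there, and Alb at 12.22.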

How the data were processed

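The authors' tools were edgeR, featureCounts (Subread), STAR, DRAGEN and bcl2fastq, on GRCm38, per the submitters' processing notes. Settings and the handling of strand and of reads with several matches are not given in the sources used here, so reads of overlapping or antisense genes cannot be told apart. Values were deposited as log2 CPM. By their lowest values the authors added a small prior, and no further scaling shows in them. Each table has 55774 rows for 55487 IDs, because 287 rows repeat an ID.

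Genes were tested when above 0 log2 CPM (1 CPM) in 5 or more libraries (first table) or 6 or more (second table), with limma 3.58.1 in R 4.3.3 (lmFit, eBayes with a trend), two-sided, with every group of a table in the fit, Benjamini-Hochberg adjustment over all tested genes and a threshold of 0.05. This tested 13285 and 13388 genes, with 79 nuclear and 13 mitochondrial members in each table. WT PBS 2 was left out. The fit was run on simulated data with independent counts, known changes in some genes and no shift of all genes. That run does not bear on the scaling or on libraries that stand apart. Whole reads recovered from the low values (tolerance 0.1 read) gave depth and the reads of rare genes. Intervals on read ratios cover counting error only.

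Members and lists were chosen with earlier results of these data known, and the NRF1 and YY1 motifs were shortened after their matches were seen. Named are all mitochondrial genes, up to 3 rises and 3 falls per complex and comparison, isoform pairs and up to 2 rises and 2 falls of a list, with every regulator open to naming; Ndufv2 and Ndufv3 in PiZ, Cox5b after tunicamycin, the values of Ndufb2 and those of WT PBS 2 were added after they were seen. One gene that this rule names is not reported here. In 3 tunicamycin libraries the title and column do not match by number; these are named a, b and c. Alternatives were other scalings, filters and pseudocounts, robust moderation, a replicate block and leaving libraries out.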

Additional observations from a re-analysis of the deposited data

Results flagged for a closer look

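Among the 42 groups of values examined for a library far from the rest, of which chance alone would mark about 1 in 20, 10 values stood out. For the percent of reads on the 13 mitochondrial genes, these were 18.7% in PiZ p50KO 3, 8.07% in tunicamycin 1 and 23% in DMSO 2. DMSO 2 also stood apart by the percent of its reads on nuclear members, 0.701%, and by Atp5g1 at 4.96 log2 CPM. mt-Co1 was at 14.53 log2 CPM in tunicamycin 1 and 15.30 in DMSO 2. mt-Nd2 was at 14.98 in PiZ p50KO 3, 13.04 in tunicamycin 1 and 15.50 in DMSO 2. These values repeat 3 libraries, so they are not separate signs.

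2 genes of testis isoforms had reads in WT PBS 2 and 0 reads in every other library of both tables. Cox7b2 was at 2.69 log2 CPM there, from 66 reads, and Cox8c at -1.71, from 3 reads. The comparisons as reported do not use that library.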

How the results depend on the processing

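The counts of calls depended on the scaling, on WT PBS 2 and on the libraries with most mitochondrial reads, and the cause was not tested. Where a share of all genes under a setting is given above, it applies here. The other counts have none beside them, so they do not tell these genes apart from all genes. With quantile normalization the median for nuclear genes was -0.37 in PiZ, against -0.081 over all genes. After tunicamycin these medians were -0.19 and -0.0084, and in PiZ p50KO against PiZ 0.16 and 0.043. For PiZ against WT PBS, nuclear genes that fell, 11 as reported, were 70 with the median shift, 44 with quantile normalization, 17 per nuclear coding reads, 7 with the replicate block, 0 with WT PBS 2, 0 with WT PBS 2 and the median shift, and 9 to 16 when 1 library was left out. Nuclear genes that rose, 1 as reported, were 0 with the median shift, 0 with quantile normalization, 2 with no filter and 0 with WT PBS 2 and the shift. Mitochondrial genes that fell, 5 as reported, were 10 with the shift, 0 with WT PBS 2, 0 with both, 11 without PiZ 4, PiZ p50KO 3 and WT PBS 4, and 4 to 11 when 1 library was left out. For PiZ p50KO against PiZ, nuclear genes that rose, 1 as reported, were 17 with the shift, 4 with quantile normalization and 0 per nuclear coding reads, with no filter, with the replicate block, with WT PBS 2, with WT PBS 2 and the shift, without PiZ p50KO 1 and 2, and without the 3 libraries of the first table just named, and 0 to 1 when 1 library was left out. Nuclear genes that fell, 1 as reported, were 2 with no filter and 0 with the shift, the replicate block, WT PBS 2, WT PBS 2 and the shift, or without PiZ p50KO 1 and 2. Mitochondrial genes that rose, 0 as reported, were 1 with the shift, 1 with quantile normalization and 0 to 1 when 1 library was left out. For tunicamycin, nuclear genes that rose, 21 as reported, were 3 with the shift, 3 with quantile normalization, 7 with the replicate block and 13 to 27 when 1 library was left out. Nuclear genes that fell, 4 as reported, were 18 with the shift, 16 with quantile normalization, 2 with the replicate block, 8 without DMSO 2 and tunicamycin 1, and 3 to 9 when 1 library was left out. Mitochondrial genes that rose, 0 as reported, were 1 with quantile normalization, and those that fell, 0 as reported, were 7 with the shift, 6 with quantile normalization, 8 without DMSO 2 and tunicamycin 1, and 0 to 6 when 1 library was left out. The replicate block uses only libraries whose number occurs in both groups. Whether equal numbers mark pairs is not known, and the libraries were treated as unpaired. Deviations of same-numbered libraries correlated at -0.23 to 0.56, with no comparison above 0.1 for every number, which cannot decide it. The highest value was that of PiZ 4 and WT PBS 4. Leaving out the libraries with most mitochondrial reads, and adding WT PBS 2 together with the shift, were chosen after the data were seen. Counts for TNFa were 0 under every setting run. Among named genes called as reported or under the alternative, the sign changed with WT PBS 2 in PiZ for Atp5a1 (0.027), Atp5c1 (0.12), Cox7c (0.12), Ndufb9 (0.071), mt-Co3 (0.12) and mt-Co2 (0.25, and 0.032 with the shift as well). With WT PBS 2, 6 mitochondrial and 7 nuclear genes named for PiZ changed sign with a call in neither fit. The sign changed with the shift for Cox6a1 (-0.47) and Cox7a2 (-0.48) in PiZ and for Sdhb after tunicamycin (-0.11, and -0.0056 with quantile normalization), and with quantile normalization for mt-Co1 after tunicamycin (0.53). Cox6a2 could not be fitted when a tunicamycin library was left out, since it then missed the filter. Depth limits the rare isoforms, several of which had under 10 reads a library.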
